A study of Rattus norvegicus with 120 samples.

Results

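The genes described here are those of the cytosolic ribosomal proteins of the rat. Members were genes whose symbol was Rpl or Rps with a number and at most a short suffix (a, x, y or l), Rplp0 to Rplp2, or Rpsa, with a mean of at least 5 CPM (counts scaled to a library total of 1000000) in kidney or heart. The rule matched 106 of 30560 genes, and 88 gene IDs on 75 symbols passed the CPM minimum. Of the 18 that did not, 12 had a mean under 1 CPM in both organs. Of members just inside the minimum, the mean CPM in the organ with the higher one was 8.18 (the Rpl12 ID ENSRNOG00000028993) and 9.92 (the Rpl35a ID ENSRNOG00000032348), and the genes just outside had 4.03 (the Rpl39 ID ENSRNOG00000067660) and 3.72 (Rpl10l). The 88 IDs comprised 46 of the large subunit, 32 of the small subunit, 3 of the acidic stalk (Rplp0, Rplp1, Rplp2) and 7 like-named genes (Rpl3l, Rpl22l1, Rpl7l1, Rps27l, Rpl31l4, Rps10l1 and Rps18l1). They covered 68 of 77 standard ribosomal protein symbols; Rpl7, Rpl10, Rpl13a, Rpl27a, Rpl36, Rpl37a, Rpl41, Rps7 and Rps26 were not analysed here.

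Each cytosolic ribosome is built from ribosomal RNA and one copy of nearly every ribosomal protein, so the genes are transcribed together at high levels in all cells. Their mRNAs start with a C followed by a run of pyrimidines, the 5′ terminal oligopyrimidine tract, through which the mTORC1 kinase controls their translation when amino acids are plentiful. Several proteins have a paralog with a tissue-limited pattern; Rpl3l takes the place of Rpl3 in ribosomes of adult heart and skeletal muscle.

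The libraries held polyadenylated RNA of kidneys and hearts. The ZSF1 rats were 30 weeks old, and in this strain obese animals lack a working leptin receptor and lean animals serve as controls. Study A held lean rats on vehicle, obese rats on vehicle and obese rats on BT2, an inhibitor of the kinase BDK that restrains branched-chain amino acid breakdown. Study B held obese rats on vehicle, obese rats on empagliflozin, an inhibitor of the renal glucose transporter SGLT2, and obese rats on BT2 with empagliflozin, called the combination below. Compounds were given in the chow, and each of the 12 groups (6 per organ) had 10 libraries from 10 rats per condition; the lean and obese animals differ by genotype, and all drug groups were compared with the obese vehicle group of their own study. The series text names whole kidney and kidney cortex for the renal tissue, without assigning libraries to either, and the labels do not tie a kidney to a heart. In bulk tissue, fewer cells of a type and less RNA per cell cannot be told apart.

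In units of 1000000 counts, the summed runs of a library came to 6.74 to 23.6 in heart (median 12.2) and at most 54.9 in kidney (median 10.1). Replicate 2 of kidney BT2 (22774 counts) and replicate 8 of the kidney study B vehicle (776178 counts) were below 1000000 and were left out of all levels, but not of the tests. In 17 libraries transcripts of another tissue were high: kidney lean replicate 8 held skeletal muscle and heart transcripts (Myh4 8289 CPM, Actc1 1922 CPM), kidney BT2 replicate 2 skeletal muscle transcripts (Myh4 64901 CPM), combination replicates 1, 4 and 5 the liver transcript Alb (94.2 to 804 CPM) and combination replicate 7 the heart transcript Actc1 (258 CPM), and 11 heart libraries held atrial or skeletal muscle transcripts. Kidney markers were present in the kidney libraries and cardiomyocyte markers in the heart libraries, with no marker of either list at 0 in every library of a group of its own organ.

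The quantification of this family differed between the deposited run tables. Replicates 1 to 5 of every group were on plate 1 and replicates 6 to 10 on plate 2, and 24 plate 1 libraries and 19 plate 2 libraries had a repeat run. In the 19 plate 1 libraries with at least 1000000 counts in both runs, the repeat and the original run of the same library differed by over 2-fold (median over libraries of log2(CPM + 1)) for 19 of 87 members (21.8%), against 1.03% of 10636 genes with at least 5 CPM. In the 17 such libraries of plate 2 the number was 0 of 83 members. Rps20 (ENSRNOG00000008555) had a median of 173 CPM in the original plate 1 run and 1.02 CPM in the repeat run of the same libraries; Rplp1 had 177 and 5.21 CPM, Rps27a 198 and 7.15 CPM, and Rps18 (ENSRNOG00000000471, whose deposited description is that of a galactosyltransferase) 78.6 and 2.57 CPM. For Rpl9, counts moved between IDs: ENSRNOG00000026716 had 223 CPM in the original and 10.7 CPM in the repeat run, and ENSRNOG00000030476 had 1.99 and 283 CPM. Summed over all members, the repeat run gave 0.897 times the share of counts of the original run on plate 1 (range 0.868 to 0.923) and 0.991 times on plate 2. What differed in the making of the original plate 1 table is not given in the sources used here.

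Those 19 IDs (Rpl22, Rpl31l4, Rplp1, Rps13, Rps15a, Rps18, Rps20, Rps27a, Rps3a, all 3 IDs of Rpl9, and an ID each of Rpl30, Rpl35a, Rpl38, Rpl39, Rps29 and Rps4x among them) are reported as uncertain, as are the other IDs of the 12 symbols that carry 25 IDs. Rps18l1 is also reported as uncertain: its deposited description is ribosomal protein S18. Its median on plate 1 was 98.1 CPM in the original and 158 CPM in the repeat run, opposite to Rps18. The members on which the results below turn differed by less than 2-fold between the runs: the median log2 ratio of the repeat to the original run on plate 1 was 0.01 for Rpl3, -0.03 for Rpl3l, 0.01 for Rpl32, -0.04 for Rps2, -0.13 for Rpl12, 0.09 for Rps27l and 0.07 for Rps27. For the main IDs of Rpl36a and Rpl38 it was -0.28 and -0.27. Among other members named below, the ratio was -0.54 for Rps28, -0.44 for Rps12 and -0.35 for Rps24. For Rps28 and Rps12 that shift was larger than their kidney difference with the combination.

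The start of the transcript was examined because the family is known by its pyrimidine tract. In RefSeq promoters of the GRCr8 build, 49 of 88 members could be matched, and a window of the 20 bases before the annotated start and the first 20 bases of the transcript was read. A run of at least 8 letters that are C or T was found in 35 of the 49 windows (71.4%), against 15.5% of 33469 windows of all genes. A run of at least 8 purines, the same motif on the other strand, was in 2.04% of member windows and 17.2% of all windows. The windows of 9 members named below follow 5′ to 3′, with the longest run of C or T in capitals; Rps2, Rpl13, Rps9 and Rps27 fell in kidney with the combination, Rpl4 and Rpl3l rose in heart, Rps27l rose with obesity, and Rps24 and Rpl3 differed between the organs in opposite directions.

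Rps2 (chr10:14251828-14251867, plus strand): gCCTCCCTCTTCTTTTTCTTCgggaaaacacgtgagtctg
Rpl13 (chr19:68062494-68062533, plus strand): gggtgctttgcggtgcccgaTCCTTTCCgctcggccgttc
Rps9 (chr1:74430418-74430457, minus strand): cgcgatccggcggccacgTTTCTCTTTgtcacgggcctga
Rps27 (chr2:177964587-177964626, minus strand): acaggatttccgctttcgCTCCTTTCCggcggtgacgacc
Rpl4 (chr8:73566457-73566496, plus strand): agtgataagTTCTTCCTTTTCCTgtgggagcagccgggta
Rps24 (chr16:96497-96536, plus strand): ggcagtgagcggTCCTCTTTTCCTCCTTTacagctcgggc
Rpl3 (chr7:113507971-113508010, minus strand): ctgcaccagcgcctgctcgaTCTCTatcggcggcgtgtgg
Rpl3l (chr10:14258426-14258465, plus strand): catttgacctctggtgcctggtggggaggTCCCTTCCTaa
Rps27l (chr8:76443638-76443677, plus strand): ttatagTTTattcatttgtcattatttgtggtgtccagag

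Rps2 had the longest run of these 9 windows, 20 letters, and Rps27l the shortest, 3 letters. Rpl13, Rps9 and Rps27 carried runs of 8 or 9 letters that began within 2 bases of the annotated start, whereas the run of Rps2 ended at the first base of the transcript. Among members with a window, a run was present in 6 of 12 that fell in kidney with the combination and in 29 of 37 others. A match is a description of these letters; where the annotated start is wrong, the tract lies outside the window.

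Ribosomal protein mRNA took up a larger share of the counts in kidney than in heart. Its median share was 1.92% in lean kidney (1.59 to 2.57%) and 1.36% in lean heart (1.06 to 1.86%). In kidney it was 2.25% in obese vehicle rats of study A, 2.44% with BT2, 2.65% in the study B vehicle group, 2.65% with empagliflozin and 2.35% with the combination. In heart, the corresponding medians were 1.28%, 1.19%, 1.14%, 1.15% and 1.23%. The groups of an organ overlapped, and the 2 vehicle groups of obese kidney, from different studies, ranged from 1.53 to 3.08% and from 2.52 to 2.90%. In the study A vehicle kidneys the median was 1.78% on plate 1 and 2.47% on plate 2. Mitochondrially encoded transcripts took a median of 15.6% of counts in lean kidney and 38.7% in lean heart, so the share of the family depends on what else was sequenced.

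**Figure D1:**
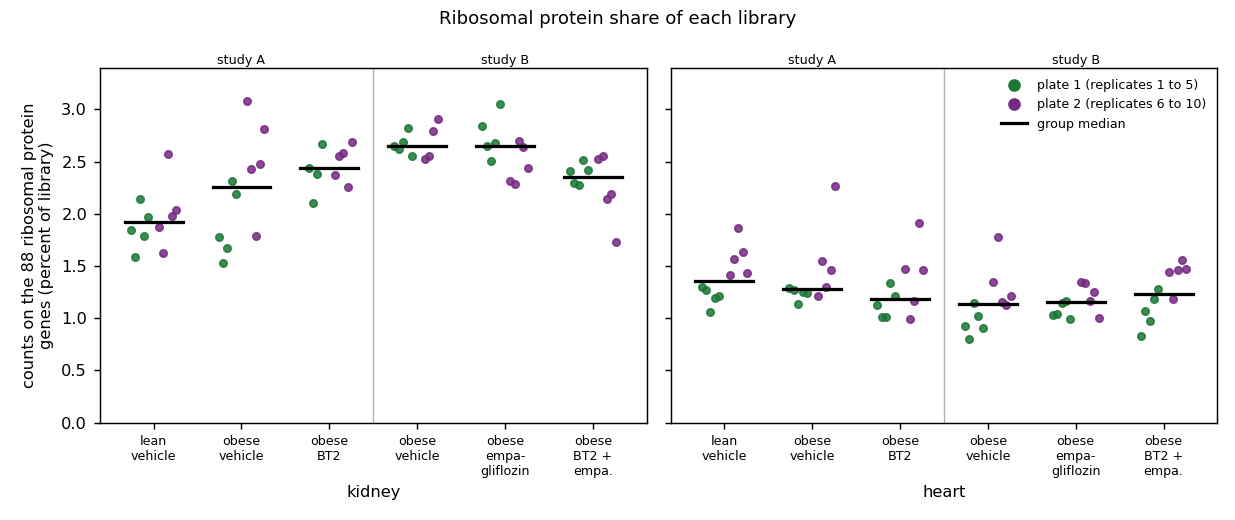
Share of each library's counts on the 88 ribosomal protein genes (percent, y axis) in the 6 groups of kidney and of heart; points are libraries coloured by plate and bars are medians. Kidney libraries lie between 1.53 and 3.08% and heart libraries between 0.80 and 2.27%, and replicate 10 of the kidney combination (1.73%) and replicate 10 of the heart study A vehicle (2.27%) stand apart from their groups.

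The first comparison was between organs. Lean kidney and lean heart were tested with edgeR's quasi-likelihood test, with plate as a covariate and Benjamini-Hochberg adjustment over all genes tested. A pairing of the organs by rat was not taken into account. Of 88 members, 5 were higher in kidney and 51 were higher in heart at an adjusted p under 0.05, where 81.0% of all genes were called (41.1% higher in kidney and 39.9% lower). The median log2 difference of kidney over heart was -0.37 for members and 0.01 for all genes. This scaling equalises the bulk of genes, and the direction of the family depends on it. The share of all counts was higher in kidney (medians 1.92 and 1.36%), and the share of counts outside the mitochondrial genes was 2.30% in lean kidney and 2.10% in lean heart, with means of 2.32 and 2.27%.

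Rpl3, a large-subunit protein next to the catalytic centre, and its muscle paralog Rpl3l had opposite patterns. Rpl3 was at 340 CPM in lean kidney and 159 CPM in lean heart (log2 difference 1.12 ± 0.12 (SE), adjusted p = 5.07e-08 by edgeR), with no overlap between the organs. Rpl3l had a median of 0.09% of the summed Rpl3 and Rpl3l counts in lean kidney and 66.7% in lean heart. Its log2 difference was -5.44 ± 1.38, but it was set largely by kidney lean replicate 8, the library with skeletal muscle and heart transcripts, in which Rpl3l made up 32.0% of the pair: without it the difference was -8.85. Rps24, a small-subunit protein, was lower in kidney (147 and 368 CPM, log2 difference -1.35 ± 0.18), and its organs did not overlap. The stalk protein Rplp2 was lower in kidney (95.2 and 226 CPM) and its partner Rplp0 had a log2 difference of -0.50. Higher in kidney were also Rpl7l1, a nucleolar homolog of Rpl7 (74.8 and 57.3 CPM), and Rps27l, a target of p53 that resembles Rps27 (34.1 and 21.8 CPM). Rps18 and Rps18l1 were called higher too, and both are among the uncertain IDs.

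Obesity was compared in vehicle-treated rats of study A. In kidney, 2 of 86 members tested were called higher in obese rats and 0 lower (edgeR, adjusted p under 0.05), against 16.9% of all genes called higher and 15.2% lower, 32.0% in all. At an unadjusted p under 0.05 the counts were 5 and 0, against 41.8% of all genes. DESeq2 called 4 members and 4809 of 14230 genes. Rps27l ranged from 39.7 to 79.4 CPM in lean kidney (median 47.4) and from 49.0 to 86.6 CPM in obese kidney (median 57.8). Every obese library was above the lean median, the groups overlapped, and the log2 difference was 0.32 ± 0.10 (edgeR adjusted p = 0.0181). The other call was Rpl22, with 0.50 ± 0.18 (adjusted p = 0.0374), which is among the uncertain IDs; with a term for the share of counts from the original plate 1 run its difference was 0.23 with an adjusted p of 0.108. Rpl3 had a difference of 0.17 and did not pass (adjusted p = 0.0591).

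The calls among other genes of the translation machinery in obese kidney are to be read against the 32.0% of all genes called in this comparison (16.9% higher and 15.2% lower). Of 43 ribosome biogenesis genes tested, 8 rose and 3 fell; the nucleolar chaperone Npm1 rose by 0.30 on the log2 scale and the large-subunit assembly GTPase Gtpbp4 fell by 0.94. Of 28 genes of mTORC1 and growth control, 3 rose and 4 fell, with Myc up by 1.64, the leucine transporter Slc7a5 up by 0.62 and Mtor down (-0.22). Of 23 initiation factors, 3 rose and 0 fell, among them the helicase Eif4a1 (0.20). The median log2 differences of the 3 lists were 0.08, -0.09 and -0.02, against -0.02 for all genes. Markers of other cells were also different in these kidneys: 6 of 7 myeloid, 5 of 5 fibroblast and matrix, 4 of 4 lymphocyte and plasma cell and 4 of 4 cycling-cell markers were called higher and 5 of 7 kidney markers lower. Summed myeloid markers went from 341 to 801 CPM in lean kidney to 890 to 1265 CPM in obese kidney, and their part in the result was not tested.

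In heart, 1 of 88 members was called higher in obese rats, where 5.36% of genes were called (3.32% higher and 2.03% lower). At an unadjusted p under 0.05, 25 members were higher and 1 lower, against 17.8% of all genes. Of the 88 members, 83 were above 0, with a median of 0.20 against 0.00 for all genes. Without replicate 10 of the obese vehicle hearts the counts were 9 and 1 and the median 0.12, and on plate 2 alone the counts were 1 and 0. Rps27l was again the gene called. It ranged from 12 to 20.02 CPM in lean heart (median 14.2) and from 14.8 to 26.3 CPM in obese heart (median 17.4), with a log2 difference of 0.35 ± 0.10 (edgeR adjusted p = 0.0481) and overlap between the groups. Replicate 10 of the obese vehicle hearts had the highest share of ribosomal protein counts of all heart libraries (2.27%) and held atrial transcripts. Without it Rps27l had an edgeR adjusted p of 0.0883, and the single call was Rpl3l, lower in obese heart (-0.31 ± 0.09, adjusted p = 0.0395). Summed atrial markers had medians of 495 CPM in lean and 1039 CPM in obese hearts; 1 of 4 was called higher, as were 1 of 7 myeloid and 2 of 5 fibroblast and matrix markers, and their part in the result was not tested.

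BT2 alone moved no member past the threshold by edgeR in either organ. In kidney 0 of 86 members were called (5.67% of all genes were, 2.26% higher and 3.41% lower), although 73 were above 0 and the median was 0.13. DESeq2 called 0 members and 1357 of 14311 genes. Members with an unadjusted p under 0.05 were 4 higher and 0 lower, against 24.1% of all genes. Without BT2 replicate 2, the library of 22774 counts, 14 were higher and 0 lower at that p. The median was 0.31 on plate 1 and -0.02 on plate 2 alone. The small-subunit protein Rpsa, also known as the laminin receptor, had a difference of 0.06 ± 0.13 and Rps6, the substrate of S6 kinase, 0.11 ± 0.12. In heart 0 of 88 members were called (0.0558% of genes, 0.0239% higher and 0.0319% lower), with 72 members below 0 and a median of -0.06. At an unadjusted p under 0.05, 0 were higher and 2 lower, against 7.86% of all genes. The sign of that median turned without replicate 10 of the vehicle hearts (0.03, with 1 member higher and 1 lower) and on plate 1 alone (0.03), and 6 were lower without BT2 replicate 9. Rpl3l in heart had a difference of 0.12 ± 0.08 (edgeR adjusted p = 0.833).

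Empagliflozin alone likewise moved no member past the threshold by edgeR. In kidney 0 of 87 members were called, against 1.06% of all genes (0.59% lower). At an unadjusted p under 0.05, 23 members were lower and 0 higher, where 18.8% of all genes passed in either direction. Of the members, 75 were below 0, and the median was -0.12 against 0.01 for all genes. DESeq2 called 1 member, lower, and 614 of 14059 genes. On plate 1 alone 1 member was higher and 0 lower at an unadjusted p under 0.05 (median -0.04), and on plate 2 alone 0 were higher and 42 lower (median -0.20). The smallest p belonged to Rpl18, at 380 CPM with empagliflozin and 445 CPM with vehicle (-0.25 ± 0.08, adjusted p = 0.104). In heart 0 of 88 were called (0.107% of genes, 0.0822% higher and 0.0247% lower). At an unadjusted p under 0.05, 4 were higher and 0 lower, against 9.22% of all genes, and DESeq2 called 1. Heart Rpl3l came closest, at 169 CPM with empagliflozin and 134 CPM with vehicle (0.34 ± 0.07, edgeR adjusted p = 0.0732). In the authors' deposited table of this comparison Rpl3l was the 1 member called, higher, with a log2 fold change of 0.30, where 0.837% of genes were called. The plates went opposite ways in heart. On plate 1 alone 28 members were called higher (median 0.24), where 1236 of 11999 genes were called, 651 of them higher. On plate 2 alone 0 members and 0 of 12471 genes were called. The median there was -0.12, and 14 members were lower and 0 higher at an unadjusted p under 0.05. Without vehicle replicate 7, 15 members were higher at that p over both plates.

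With the combination, ribosomal protein mRNA was lower in kidney. Of 87 members tested, 23 fell and 0 rose against the study B vehicle (26.4% of members), where 32.1% of all genes were called (17.3% higher and 14.8% lower). The median log2 difference was -0.13 for members and 0.01 for all genes, and 69 of 87 members were below 0. By role, 12 of 46 large-subunit IDs, 8 of 32 small-subunit IDs, 0 of 3 stalk genes and 3 of 6 like-named genes fell. Of the 23, 22 were among the 68 tested members whose runs did not differ over 2-fold, and with the term for the original plate 1 run 23 members were called lower.

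**Figure D2:**
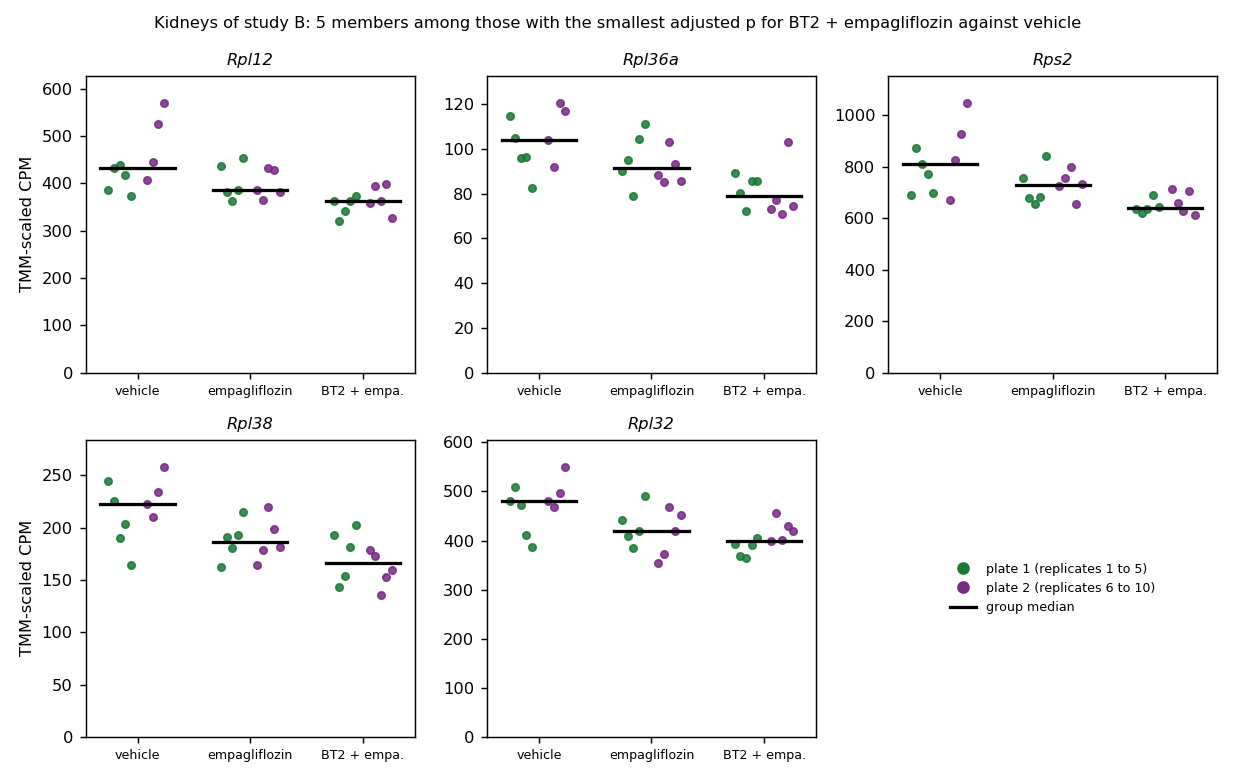
TMM-scaled CPM (y axis) of 5 ribosomal proteins among those with the smallest adjusted p in kidney with the combination, by library in the 3 kidney groups of study B; points are libraries coloured by plate and bars are medians. For Rpl12 the combination libraries lie between 321 and 400 and the study B vehicle libraries between 373 and 570, with an overlap of the groups.

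In the large subunit, Rpl12, a protein of the stalk base that helps dock elongation factors, ranged from 373 to 570 CPM with vehicle (median 432), from 363 to 454 with empagliflozin (median 386) and from 321 to 400 with the combination (median 363). All 10 combination libraries were below the vehicle median although the groups overlapped; the log2 difference was -0.30 ± 0.06 (edgeR adjusted p = 0.000694). Rpl32 ranged from 387 to 550 CPM with vehicle and from 364 to 457 with the combination (-0.24 ± 0.05, adjusted p = 0.0014). The main Rpl38 ID (ENSRNOG00000066047), a surface protein of the large subunit, ranged from 165 to 258 CPM with vehicle and from 136 to 202 with the combination (-0.39 ± 0.08, adjusted p = 0.000874). The main Rpl36a ID (ENSRNOG00000011494) ranged from 82.7 to 121 CPM and from 70.9 to 103 CPM (-0.35 ± 0.07). All 10 combination libraries were below the vehicle median for each of the 3. Summing the IDs of a symbol before the fit left differences of -0.30 for Rpl12, -0.33 for Rpl36a and -0.34 for Rpl38, and brought the summed Rpl39 to -0.28 (adjusted p = 0.000868), although neither Rpl39 ID was called alone. Rpl3 fell less, from a median of 641 to 601 CPM (-0.14 ± 0.05, adjusted p = 0.0363). Rpl6, Rpl11, Rpl13, Rpl17, Rpl24, Rpl27 and the second Rpl36a ID were also called, with differences from -0.36 (Rpl13) to -0.13 (Rpl11).

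In the small subunit, Rps2, which lines the mRNA entry channel, ranged from 669 to 1047 CPM with vehicle (median 808), from 654 to 840 with empagliflozin (median 728) and from 611 to 713 with the combination (median 638). Every combination library was below the vehicle median, the groups overlapped, and the difference was -0.34 ± 0.07 (edgeR adjusted p = 0.000773). Rps27, a zinc-finger protein of the small subunit, fell by 0.21 (adjusted p = 0.0129), and Rps9, Rps12 and Rps28 fell by 0.21, 0.28 and 0.32 on the log2 scale. Rps6 had a difference of -0.06 ± 0.05 and Rpsa of -0.12 ± 0.06, and neither was called. Among stalk proteins Rplp0 was at a median of 1046 CPM with vehicle and 1027 CPM with the combination (-0.03 ± 0.07), and Rplp2 had -0.19 ± 0.08 (adjusted p = 0.0909).

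Of the like-named genes, Rpl22l1, a paralog of Rpl22 that is induced when Rpl22 is lost, fell from 46.2 to 53.9 CPM with vehicle to 33.6 to 50.8 CPM with the combination (-0.25 ± 0.06, adjusted p = 0.0043). Rpl31l4 and Rps18l1 fell too, with differences of -0.49 ± 0.15 and -0.30 ± 0.09, and both are among the uncertain IDs. Rpl7l1 had 0.10 ± 0.05 and was not called.

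Alternatives kept 0 members higher in this comparison, and the count of members lower was 4 on plate 1 alone and 6 on plate 2 alone, with 5 libraries a group. Of all genes, 1145 of 14181 were called lower on plate 1 and 812 of 14093 on plate 2. Without replicate 10 of the combination, which had the lowest share of ribosomal protein counts of its group and 32.0% mitochondrial counts, 23 members were called lower. In the authors' deposited table of this comparison 27 members were lower and 0 higher, where 27.9% of genes were called in either direction. Markers of other cells fell in the same libraries: 6 of 7 myeloid, 4 of 5 fibroblast and matrix, 3 of 5 lymphocyte and plasma cell and 4 of 4 cycling-cell markers were called lower, with 0 higher, and 1 of 7 kidney markers was higher and 1 lower; 2 of 4 cardiomyocyte markers tested were higher and 2 of 2 skeletal muscle markers lower. Summed myeloid markers ranged from 554 to 1167 CPM with vehicle (median 884) and from 338 to 551 CPM with the combination (median 436), cycling markers had medians of 34.1 and 14.5 CPM, and no myeloid marker was at 0 in every library of a group. Their part in the fall of ribosomal protein mRNA was not tested.

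Other genes of the pathway did not all go the same way in kidney with the combination, where 17.3% of all genes were called higher and 14.8% lower. In ribosome biogenesis 5 of 43 genes rose and 10 fell; Npm1 fell by 0.27 and the RNA polymerase I subunit Polr1e by 0.42, and the nucleolar protein Rrp1b rose by 0.42. Of 13 elongation factors and other mRNAs with a pyrimidine tract, 2 rose and 2 fell: the poly(A)-binding protein Pabpc1 fell by 0.19 and Eif3f by 0.18, and the elongation factor Eef1a1 rose by 0.20. In initiation 4 of 23 rose and 3 fell, with Eif1 down (-0.25), Eif4a1 down (-0.20) and Eif2b5 up by 0.21. In the mTORC1 list 9 of 29 rose and 3 fell: Slc3a2, the heavy chain of the leucine exchanger, fell by 0.45, while the translation repressor Eif4ebp2 rose by 0.58 and the kinase Rps6ka1 by 0.29. Rack1, a scaffold protein of the small subunit outside the symbol rule, fell by 0.16. Of 17 ribosome chaperones and quality-control genes 5 rose and 2 fell, among them Usp10 up by 0.38, Gcn1 up by 0.26 and the assembly factor Aamp up by 0.24. The medians of the biogenesis, pyrimidine-tract, initiation, mTORC1 and chaperone lists were -0.03, -0.05, 0.03, 0.02 and 0.14.

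Against empagliflozin alone, the combination changed 6 of 87 members in kidney, 2 higher and 4 lower, where 31.7% of all genes were called. Rpl22l1 fell from a median of 55.9 to 42.5 CPM (-0.34 ± 0.09, edgeR adjusted p = 0.00513), Rpl36a by 0.21 (ENSRNOG00000011494), Rps2 by 0.16 and Rpl12 by 0.16. Rpl7l1 rose by 0.15 (adjusted p = 0.0105). The median over members was -0.02. This comparison shares its libraries with the comparisons of each treatment with vehicle.

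**Figure D3:**
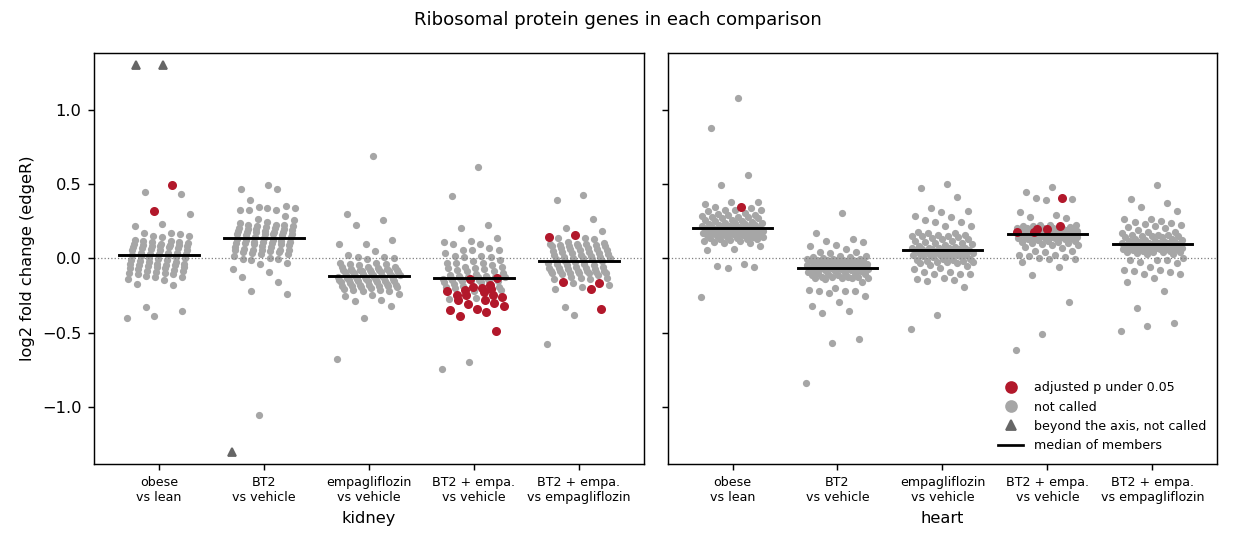
Log2 fold changes (y axis) of each ribosomal protein gene in the 10 treatment and genotype comparisons (x axis) of kidney and heart; red points have an adjusted p under 0.05 and bars mark the median. In kidney with the combination 23 red points lie below 0 and 0 above it, and in heart with the combination 6 lie above 0 and 0 below; 3 points lie beyond the axis.

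In heart with the combination, 6 of 88 members rose and 0 fell, against 5.13% of all genes called (3.58% higher and 1.55% lower). At an unadjusted p under 0.05 the counts were 31 and 0, against 19.4% of all genes. Of the members, 80 were above 0, with a median of 0.16 against 0.00 for all genes. The 6 were Rpl3l, Rpl4, Rpl11, Rpl17, Rpl24 and Rpl27, of which 5 are large-subunit genes and Rpl3l is like-named. Rpl3l ranged from 108 to 153 CPM with vehicle (median 131) and from 157 to 202 CPM with the combination (median 175). The groups did not overlap, and the difference was 0.41 ± 0.06 (edgeR adjusted p = 0.000209). Rpl4 ranged from 308 to 373 CPM and from 351 to 420 CPM (0.17 ± 0.04, adjusted p = 0.0213), with all 10 combination libraries above the vehicle median. Rpl24 had 0.20 ± 0.06, Rpl27 0.20 ± 0.06 and Rpl11, part of the 5S particle that restrains Mdm2, 0.22 ± 0.06, with adjusted p of 0.0428, 0.0456 and 0.0341; for Rpl11 and Rpl27, 7 of 10 libraries were above the vehicle median.

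The 5 calls other than Rpl3l were each lost under several settings or without single libraries. Without the heart libraries that held atrial or skeletal muscle transcripts, 1 member was called, Rpl3l (0.32, adjusted p = 0.0179). Leaving out 1 such library at a time gave 2 calls without vehicle replicate 4 or 5 or combination replicate 8 or 9, 3 without vehicle replicate 10, and 12 without vehicle replicate 7. At an unadjusted p under 0.05 the 31 members higher became 10 without all of these libraries, and 5 without the plate term. DESeq2 called 15 (892 of 12117 genes), and the fits without a filter, without the plate term and with a replicate block called 1 each (442 of 19940, 141 of 12117 and 258 of 12117 genes). Rpl3l was called in all of these, and on plate 1 alone, but not on plate 2 alone (0.33, adjusted p = 0.324). In the table the authors deposited, 16 members were higher and 0 lower, where 8.05% of genes were called, and Rpl3l had a log2 fold change of 0.39. In the same libraries 3 of 6 cardiomyocyte and 2 of 4 skeletal muscle markers tested were called higher and 0 of 4 atrial markers were called; summed cardiomyocyte markers ranged from 30201 to 37814 CPM with vehicle and from 31950 to 43155 CPM with the combination. Their part in the result was not tested. Against empagliflozin alone 0 of 88 members were called in heart by edgeR (0.0249% of genes), and DESeq2 called 5 (60 of 12049 genes). At an unadjusted p under 0.05, 17 were higher and 0 lower, against 8.13% of all genes. The plates differed here too, with 4 higher and 6 lower at that p on plate 1 (median -0.05) and 38 higher and 0 lower on plate 2 (median 0.21), and without the libraries holding another tissue's transcripts 3 were higher.

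Of the pathway lists in heart with the combination, where 3.58% of all genes were called higher and 1.55% lower, 1 of 43 biogenesis genes rose (Nob1, an endonuclease of small-subunit maturation, 0.26), 2 of 13 pyrimidine-tract mRNAs rose (Naca 0.19 and Eif3f 0.19), and 0 of 23 initiation factors were called. In the mTORC1 list the elongation factor kinase Eef2k rose by 0.25, and Castor2 and the mTOR inhibitor Deptor fell by 0.43 and 0.58. Eif3f fell in kidney and rose in heart.

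**Figure D4:**
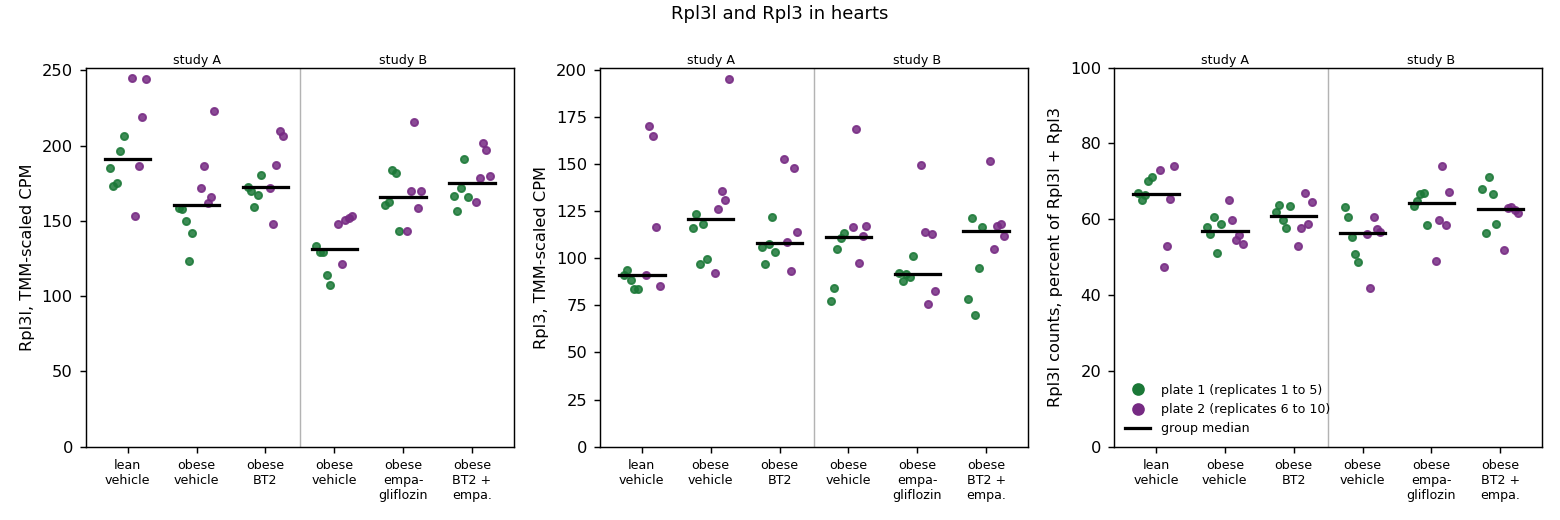
Rpl3l and Rpl3 in the 6 heart groups: TMM-scaled CPM and the percent of Rpl3l in the summed counts of both genes (y axes), with points for libraries coloured by plate and bars for medians. The share of Rpl3l lies between 41.9 and 63.2% in the study B vehicle hearts and between 51.8 and 71.1% with the combination.

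The share of Rpl3l in the summed counts of Rpl3 and Rpl3l describes which paralog a heart transcribes, without correction for the length of the transcripts. It was 65.3 ± 8.63% (SD, n = 10) in lean, 57.3 ± 4.04% in obese vehicle and 60.8 ± 4.14% in BT2 hearts of study A. In study B it was 55.1 ± 6.42% with vehicle, 62.9 ± 6.84% with empagliflozin and 62.3 ± 5.68% with the combination. Permutation tests (two-sided, 100000 resamples, adjusted over 5 comparisons) gave a difference of -7.96 percentage points for obese against lean (adjusted p = 0.0294), 7.76 for empagliflozin (adjusted p = 0.0294), 7.19 for the combination (adjusted p = 0.0294), 3.46 for BT2 (adjusted p = 0.0937) and -0.57 for the combination against empagliflozin (adjusted p = 0.845). All 10 obese vehicle libraries were below the lean median. In the BT2 group and in either empagliflozin group, 9 of 10 libraries were above the vehicle median of their study. Within plate 1 the differences for obesity, empagliflozin and the combination were -11.1, 8.45 and 8.53, of which the first passed (exact permutation test, adjusted p = 0.0397), and within plate 2 they were -4.85, 7.07 and 5.85, with none passing. Without the libraries that held atrial or skeletal muscle transcripts they were -7.52, 6.15 and 4.79, and none passed (adjusted p = 0.0771, 0.0771 and 0.130 by permutation test). The comparisons with vehicle in study B share the vehicle hearts.

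Whether the combination acted differently in the organs was tested with an interaction term. Libraries of both organs were treated as independent, since the labels do not tie a kidney to a heart, so a pairing by rat was not taken into account. For 33 of 88 members (37.5%) the effect in heart minus that in kidney was called, all 33 higher in heart, where 16.2% of all genes were called (8.3% higher and 7.91% lower). At an unadjusted p under 0.05 the counts were 47 and 1, against 29.5% of all genes. Rpl27 had an interaction of 0.47 ± 0.09, Rpl32 0.45 ± 0.08, Rpl12 0.44 ± 0.09, Rps27 0.43 ± 0.09 and Rpl17 0.38 ± 0.08. By role the calls were 21 of 46 large-subunit IDs, 10 of 32 small-subunit IDs, 0 of 3 stalk genes and 2 of 7 like-named genes. Of the 33, 20 had been called lower in kidney, 5 higher in heart, 4 of these both, and 12 neither. With a term for the original plate 1 run 37 were called, and 32 of the 33 were members whose runs did not differ over 2-fold. The count was 20 without the libraries that held transcripts of another tissue, 12 without the plate term, 8 on plate 1 and 2 on plate 2 alone. Counts of all genes under these settings are not given here. A loss of calls particular to members therefore cannot be told from a general one.

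**Figure D5:**
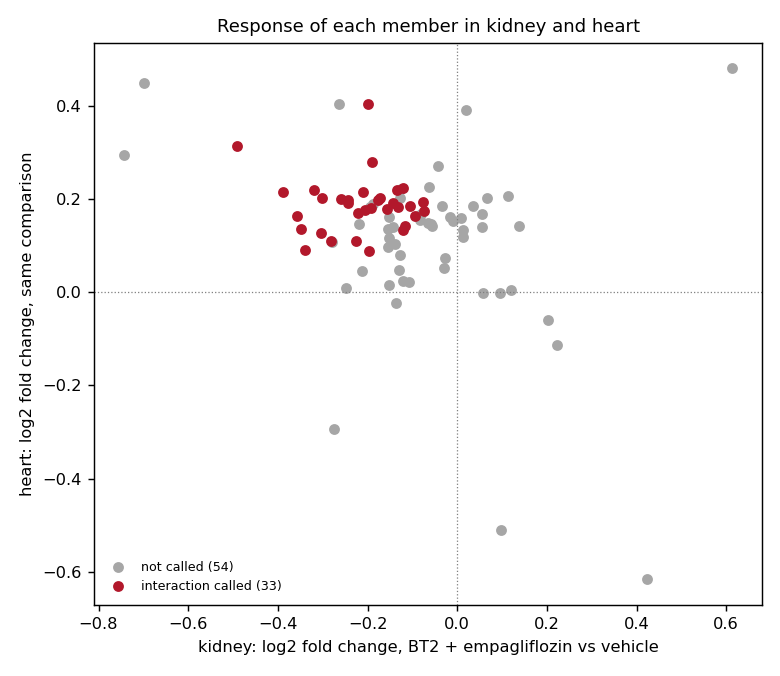
Log2 fold change with the combination against vehicle in kidney (x axis) and in heart (y axis) for 87 ribosomal protein genes; coloured points are the 33 whose effect differed between organs at an adjusted p under 0.05. Of the 87 points, 67 lie left of 0 on the kidney axis and above 0 on the heart axis.

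For the other contrasts fewer members differed between organs. The empagliflozin effect differed for 1 member (1.4% of all genes were called, 1.1% higher), Rpsa, which was at 810 CPM with empagliflozin and 911 CPM with vehicle in kidney and at 294 and 268 CPM in heart (interaction 0.36 ± 0.10, edgeR adjusted p = 0.049). This call was lost with a replicate block, without a filter, with DESeq2 size factors, without the plate term, with the term for the original plate 1 run, on plate 2 alone and without the libraries holding another tissue's transcripts. It was also lost without kidney vehicle replicate 8, heart vehicle replicate 4 or 5, or heart empagliflozin replicate 7. Its combination effect also differed (0.36 ± 0.10, adjusted p = 0.014). At an unadjusted p under 0.05, 29 members were higher in heart for empagliflozin and 0 lower, against 16.4% of all genes, and the median interaction was 0.18. Without the plate term 8 were higher at that p, and 19 without heart vehicle replicate 5. The obesity effect differed for 0 of 88 members (14.0% of genes, 6.41% higher and 7.64% lower). DESeq2 called 2 members, where it called 2281 of all genes. At an unadjusted p under 0.05, 7 were higher and 0 lower, against 27.9% of all genes. The 7 became 4 without kidney lean replicate 8, 3 without heart obese vehicle replicate 10 and 1 without the libraries holding another tissue's transcripts, where the median was -0.03 in place of 0.18. The BT2 effect differed for 0 of 88 (0.528% of genes), with a median of -0.18. At an unadjusted p under 0.05, 0 were higher and 1 lower, against 11.9% of all genes. Members lower at that p were 9 without kidney BT2 replicate 2, 7 without heart BT2 replicate 4 and 10 without heart BT2 replicate 9, and without heart obese vehicle replicate 10 there were 4 higher and 1 lower with a median of -0.06.

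Members that share a symbol with another ID varied more between libraries. In kidney the coefficient of variation over 58 libraries had a median of 23.0% for the 63 members on a symbol of their own and 33.8% for the 25 IDs that share a symbol; in heart the medians were 24.7% and 32.2%. Rpl7l1 varied least in both organs (7.35% in kidney and 7.92% in heart). For some shared symbols the sum of the IDs was steadier than its parts. In kidney the 3 Rpl9 IDs varied by 83.4 to 90.1% and their sum by 17.2%. The Rpl39 IDs varied there by 28.9 and 88.5% and their sum by 17.7%.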

How the data were processed

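RNA-seq of rat kidney and heart was analysed from tables deposited by the authors: estimated counts per gene (expected counts) in 4 run tables, and 8 comparison tables with deposited normalized counts (signal), log2 fold changes and p-values. STAR 2.7.3a, FastQC 0.11.9, MultiQC 1.11, Salmon 1.5.2, DESeq2 1.34.0 and build mRatBN7.2 are listed, without role or order, per the submitters' processing notes; of the deposited values 6.85% were not whole and were rounded. Runs of a library were summed (163 columns; 82 further columns of per-sample values were not used). Per comparison, genes were filtered with filterByExpr, TMM-scaled and tested with edgeR 4.0.16 (R 4.3.3, quasi-likelihood F test, plate covariate, Benjamini-Hochberg over all genes tested, called under 0.05). An interaction term compared organs, without a term for the animal. Signed differences are test minus base. The SE of an edgeR difference was derived as its absolute value divided by the square root of the F statistic. Levels are CPM scaled by TMM within an organ, and in the comparison of organs over both. Permutation tests used scipy 1.17.1.

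In each comparison up to 6 called members per direction were named, with a fixed set of paralogs and landmark proteins; listed pathway genes were named by smallest adjusted p. Members, lists and tests were chosen with earlier results of these data known. On counts simulated for the kidney combination comparison (14037 genes), 34% of 1.25-fold, 68% of 1.5-fold and 92% of 2-fold changes were recovered, with 3.95% false calls. Alternatives were no filter, DESeq2 size factors, TMM without members, DESeq2 1.42.0, no plate term, a replicate block and each plate alone; left-out libraries, summed copies and a term for the original plate 1 run were added after seeing the data. Replicates are separate rats by the series text. Some members are counted but not reported here by name.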

Additional observations from a re-analysis of the deposited data

Results flagged for a closer look

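Values of 10 libraries and measures lay apart from their group by Dixon's test, which flags about 1 in 20 groups by chance; 75 groups were tested. The percent of counts on ribosomal protein genes was 1.73 in replicate 10 of the kidney combination, 2.27 in replicate 10 of the heart study A vehicle and 1.92 in replicate 9 of heart BT2. Replicate 10 of the kidney combination also had the lowest Rpl3 of its group, 515 CPM, and Rps27l in kidney lean replicate 8 was 79.4 CPM. The percent of Rpl3l among Rpl3l and Rpl3 counts in kidney was 32.0 in lean replicate 8, 1.57 in study A vehicle replicate 4, 0.141 in study B vehicle replicate 1, 0.1104 in empagliflozin replicate 7 and 0.941 in combination replicate 7.

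Effects that differed between organs by the interaction term were those of 33 members for the combination and of 1 member for empagliflozin. For the combination the heart minus kidney differences were 0.47 for Rpl27, 0.45 for Rpl32, 0.44 for Rpl12, 0.43 for Rps27, 0.38 for Rpl17 and 0.36 for Rpsa, and for empagliflozin 0.36 for Rpsa.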

How the results depend on the processing

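Of 48 tests of named members, 0 reversed direction under any alternative; 33 lost their call on plate 2 alone, 20 on plate 1 alone, 17 without the plate term, 14 with the replicate block and 7 with the term for the original plate 1 run. Members called in kidney obese against lean numbered 1 without a filter, 4 with DESeq2, 0 without the plate term, 5 on plate 1, 0 on plate 2, 1 with the term for the original plate 1 run and 4 without lean replicate 8, the library with skeletal muscle and heart transcripts. All genes called also changed with the setting, from 976 of 14534 on plate 2 to 5423 of 14240 without that library. In kidney BT2, 1 was called with the term for the original plate 1 run (444 of 14311 genes), and in kidney empagliflozin 1 by DESeq2 (614 of 14059 genes). In the kidney combination 4 were called on plate 1 and 6 on plate 2, where 2480 of 14181 and 1752 of 14093 genes were called. Between the combination and empagliflozin in kidney 3 were called without a filter, 1 on plate 1, 0 on plate 2 and 3 without libraries holding another tissue's transcripts. All genes called there numbered 4549 of 21543, 3880 of 14047, 1133 of 14113 and 2950 of 14345.

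In heart obese against lean 0 were called without a filter, with DESeq2 size factors, without the plate term, on plate 2 or with the term for the original plate 1 run, 5 with DESeq2 and 9 on plate 1. Without obese vehicle replicate 10, 1 was called in the opposite direction. All genes called numbered 934 of 12694 with DESeq2, 873 of 12814 on plate 1 and 49 of 12783 on plate 2. In heart empagliflozin 28 were called on plate 1, 1 with DESeq2 and 1 when replicate 6 was left out, where 1236 of 11999, 70 of 12167 and 26 of 12222 genes were called. In the heart combination the count was 1 without a filter, without the plate term, on plate 1 or without libraries holding another tissue's transcripts, 0 on plate 2, 15 with DESeq2, and from 2 to 12 when 1 such library was left out. Between the combination and empagliflozin in heart DESeq2 called 5.

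For the organ interactions, obesity gave 2 calls with DESeq2, 1 without the plate term and 6 on plate 1. Empagliflozin gave 5 with DESeq2, 18 on plate 1, 0 without a filter, with DESeq2 size factors, without the plate term, on plate 2, without libraries holding another tissue's transcripts, without libraries under 1000000 counts or with the term for the original plate 1 run, and 0 to 8 when 1 library was left out. The combination gave 12 without the plate term, 8 on plate 1, 2 on plate 2 and 20 without libraries holding another tissue's transcripts. For obesity, DESeq2 called 2281 of all genes, against 2097 in the main fit. For empagliflozin, 475 genes were called with DESeq2 and 194 with DESeq2 size factors, against 206 in the main fit. Counts of all genes under the other settings of these interactions are not given here. The causes of these changes were not tested. Each plate alone holds 5 libraries a group.

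With the replicate number as a block, the count was 1 in kidney obese against lean, 0 in heart obese against lean, 1 in the heart combination and 0 for the empagliflozin interaction. The numbers do not pair the libraries: within plates the deviations of same-numbered libraries correlated at a median from -0.11 to 0.12 over the comparisons.

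The Rpl3l share differences lost their call on plate 2 for obesity (-4.85), on plates 1 and 2 for empagliflozin (8.45 and 7.07) and the combination (8.53 and 5.85), and without libraries holding another tissue's transcripts (-7.52, 6.15 and 4.79).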
